A study of Mus musculus with 6 samples.

Results

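The 8 genes described here encode cyclic nucleotide phosphodiesterases: Pde10a, Pde3a, Pde3b, Pde4a, Pde4b, Pde4d, Pde7a and Pde8a. They were taken by name from the 34981 genes of the table, and their BMP2 and PBS libraries were set side by side within each batch. The group was put together with earlier results of this comparison known, in which Pde10a stood out, so the differences of these 8 genes between BMP2 and PBS are given as a description, without p-values, and calls among them are counted only beside the share of all genes called. RNA sequencing was done on spheroids of B16F10, an established melanoma line from a C57BL/6 mouse, embedded in a gel of basement membrane proteins (Matrigel). In each of 3 batches, 1 culture received BMP2, a bone morphogenetic protein that signals through SMAD proteins, at 100 ng/ml and 1 culture received PBS, both for 10 days. The PBS cultures carry the label of untreated spheroids. All 6 cultures shared the cell line and the gel and held no host cells by design, so they model tumour cells alone.

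Phosphodiesterases break the ring of cyclic AMP (cAMP) or cyclic GMP (cGMP) and so end the signal that adenylyl or guanylyl cyclases begin. In pigment cells the melanocortin receptor raises cAMP, which acts through protein kinase A and the factor CREB to raise Mitf, the master regulator of the lineage. PDE10A accepts both cyclic nucleotides and is best known from neurons of the striatum. PDE4D is known in melanocytes as a brake that MITF induces on this pathway.

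Library totals lay between 27821911 and 36856498 estimated counts. The 7 melanocyte lineage markers, among them Tyr, Dct and Pmel, summed to 28870 to 39071 CPM (counts per 1000000 of the library, scaled by the trimmed mean of M values, TMM) with BMP2 and to 23669 to 26310 with PBS, which matches the label. The sums did not overlap between the groups, and their part in the values below was not tested. Gene by gene, Mitf and Dct did not overlap, while Sox10, Tyr, Tyrp1, Pmel and Mlana did. Tyrp1, Dct and Pmel made up most of the sums. Of all genes tested, 6.42% were higher with BMP2 without overlap. In such bulk samples a change in the share of some cells and a change in RNA per cell cannot be told apart. Markers of other cell types were low beside those of the melanocyte lineage. The 4 leukocyte genes summed to at most 5.01 CPM, 4 fibroblast genes to at most 8.49, 3 endothelial genes to at most 2.02 and 2 epithelial genes to at most 0.759. Cdh5, which defines endothelium, had 0 counts in all 6 libraries. Pecam1 (0.724 to 2.02 CPM), Cd68 (2.02 to 4.91 CPM) and Pdgfra (1.66 to 7.32 CPM) made up most of the endothelial, leukocyte and fibroblast sums. Cd68 was lower with BMP2 without overlap, beside 5.72% of all genes tested. The library PBS 1 had the lowest scaling factor (0.872, against 0.975 to 1.09) and was the lowest of the 6 libraries for 30.9% of the genes tested.

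Pde10a lies on chromosome 17 (GRCm38, 8525372 to 8986648, plus strand; ENSMUSG00000023868) and has 14 annotated transcripts with several starts. RefSeq on GRCm38.p6 gives upstream windows for 5 of the 8 genes. They are shown for Pde10a, whose level differed most between the groups, and for Pde8a, whose window held the most of the motifs searched. The sequences run 5′ to 3′ from 250 bases before a RefSeq start, and that of the first Pde10a start stops after 198 bases, where an exon of another transcript begins. Capitals mark matches to the motifs listed after the sequences. The windows lie at chr17:8801495-8801692, chr17:8849735-8849984 and chr7:81213015-81213264, all on the plus strand.
Pde10a, the first RefSeq start: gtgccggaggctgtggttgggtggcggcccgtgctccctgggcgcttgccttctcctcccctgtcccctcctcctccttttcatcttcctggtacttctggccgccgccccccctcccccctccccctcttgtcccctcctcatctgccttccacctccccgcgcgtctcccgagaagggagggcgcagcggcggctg
Pde10a, the second RefSeq start: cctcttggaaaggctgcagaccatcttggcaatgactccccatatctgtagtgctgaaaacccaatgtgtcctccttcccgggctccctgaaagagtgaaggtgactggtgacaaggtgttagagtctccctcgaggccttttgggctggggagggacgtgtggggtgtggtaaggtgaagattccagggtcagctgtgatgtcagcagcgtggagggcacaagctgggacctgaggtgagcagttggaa
Pde8a, its RefSeq start: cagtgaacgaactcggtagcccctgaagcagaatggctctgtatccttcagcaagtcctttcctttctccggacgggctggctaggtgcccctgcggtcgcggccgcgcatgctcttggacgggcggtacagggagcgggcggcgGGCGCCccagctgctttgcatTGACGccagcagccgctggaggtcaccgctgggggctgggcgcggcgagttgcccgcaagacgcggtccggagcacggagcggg

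The motifs, searched on both strands over 250 bases, were the full cAMP response element TGACGTCA (in 1.55% of all 32851 windows of that length), its core TGACG (17.8%, and contained in the full element), GGCGCC, a GC-rich element that SMAD proteins of the BMP pathway are known to bind (9.59%), and the E-boxes CACGTG (6.02%) and CATGTG (12.3%), which MITF is known to bind. Neither Pde10a window held any of them, which says only that these letters do not occur there. Both Pde10a windows lie inside the annotated gene, so the bases before its outermost start at 8525372 were not searched. The Pde8a window held GGCGCC 105 bases and TGACG 84 bases before the start. That RefSeq start lies before the annotated start of Pde8a at 81213596, and the bases just after it occur in none of its annotated transcripts. Among the other 8 windows of members, TGACG occurred before 1 start each of Pde4a and Pde4b, GGCGCC before another start of Pde4a and CATGTG before that of Pde4d. The 2 Pde10a windows differed in base composition. The first had 72.8% G and C and 21 CpG sites over 250 bases, against a median of 52.4% and 6 over all windows, and the second had 56.0% and 4. Estimated counts per gene do not show which start was used.

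Pde10a was higher with BMP2 in every batch. With BMP2 it stood at 32.5, 23.6 and 25.0 CPM in batches 1, 2 and 3, from 950, 810 and 1002 estimated counts. With PBS it stood at 10.2, 8.57 and 6.35 CPM, from 314, 305 and 212. The lowest BMP2 library lay above the highest PBS library, so the groups did not overlap. The means were 27.1 ± 4.8 and 8.38 ± 1.94 CPM (SD, n = 3), a ratio of 3.23. The log2 differences within batches were 1.67, 1.46 and 1.97, and the log2 fold change was 1.69 (SE 0.26, 95% interval 1.10 to 2.28). With batch as a block in the model it was 1.70 (SE 0.18). None of the 31-base stretches of its transcripts occurs in another annotated gene.

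**Figure D1:**
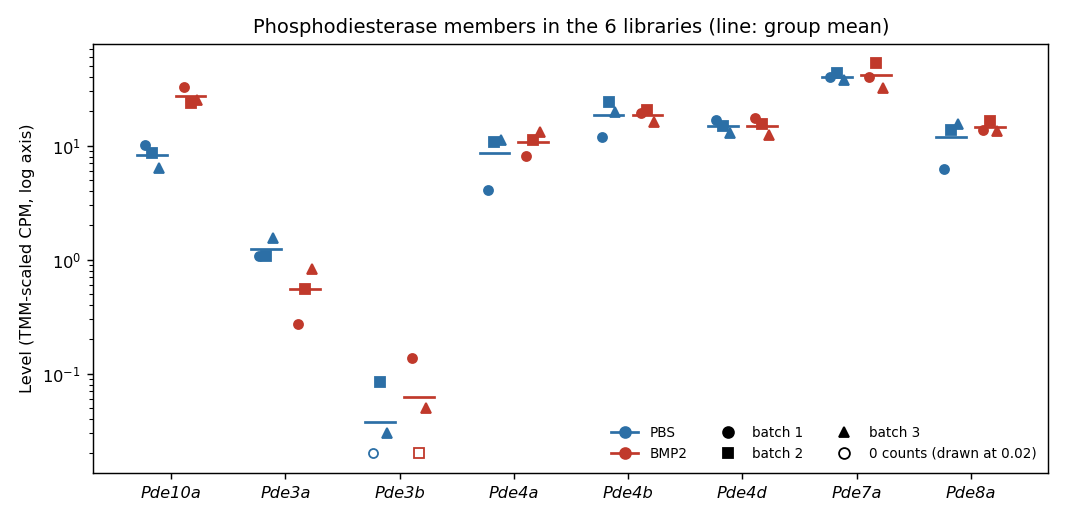
Levels of the 8 phosphodiesterase genes in TMM-scaled CPM on a log axis, with PBS libraries in blue, BMP2 libraries in red, a marker shape for each batch and a line at the mean of each group. Pde10a is higher in all 3 BMP2 libraries and Pde3a lower, while the other genes overlap between the groups; open markers stand for 0 counts.

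The other members that accept both cyclic nucleotides were scarce. PDE3A and PDE3B hydrolyse cAMP and are held back by cGMP, and are best known from heart and platelets and from fat cells. Pde3a was at 0.274, 0.555 and 0.824 CPM with BMP2 and at 1.07, 1.07 and 1.56 with PBS, from 8 to 33 and 33 to 52 estimated counts. Every BMP2 library lay below every PBS library, and the log2 fold change was -1.15 (SE 0.52), with -1.77, -0.88 and -0.87 in batches 1, 2 and 3. The 95% interval ran from -2.35 to 0.058, so the size of the difference was poorly fixed at this depth. An antisense gene, Gm28523, shares 5.82% of the exon bases of Pde3a, and since no source used here says whether the counting used strand, reads of the 2 genes cannot be told apart there. Pde3b had 4, 0 and 2 estimated counts with BMP2 and 0, 3 and 1 with PBS. It did not pass the filter on low counts, and no difference was detectable at this depth.

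The PDE4 enzymes, which are specific for cAMP, did not separate the groups. Pde4a was at 8.08, 11.2 and 13.1 CPM with BMP2 and at 4.10, 10.7 and 11.1 with PBS. It was higher with BMP2 in each batch, by 0.97, 0.059 and 0.24 on the log2 scale, most in batch 1, where PBS 1 was the lowest library. Its log2 fold change was 0.32 (95% interval -0.60 to 1.24), and -0.022 without PBS 1. Pde4b was at 19.4, 20.6 and 16.1 CPM with BMP2 and at 12.0, 24.3 and 19.8 with PBS, with the libraries of the groups mixed. Its log2 difference was 0.68 in batch 1, and -0.23 and -0.29 in batches 2 and 3, and the log2 fold change was 0.00049 (SE 0.28), or -0.24 without PBS 1. Pde4d, the MITF-induced brake on cAMP, was at 17.4, 15.4 and 12.4 CPM with BMP2 and at 16.7, 14.8 and 12.9 with PBS. Its log2 differences in batches 1, 2 and 3 were 0.054, 0.060 and -0.059, and the interval of its log2 fold change, -0.50 to 0.55, still allows a moderate change either way.

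PDE7A and PDE8A are high-affinity enzymes for cAMP, and Pde7a was the most abundant of the 8 genes. Pde7a was at 40.2, 52.7 and 32.0 CPM with BMP2 and at 39.7, 43.6 and 37.7 with PBS. The groups overlapped, and the log2 fold change was 0.047 (95% interval -0.47 to 0.56). Pde8a was at 13.6, 16.6 and 13.6 CPM with BMP2 and at 6.28, 13.9 and 15.5 with PBS. PBS 1 again stood lowest, the log2 differences were 1.11, 0.26 and -0.19 in batches 1, 2 and 3, and the log2 fold change of 0.30 (SE 0.34) became -0.013 without PBS 1. PBS 1 was thus the lowest library for 3 of the 7 members tested (Pde4a, Pde4b and Pde8a), beside 30.9% of all genes tested.

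**Figure D2:**
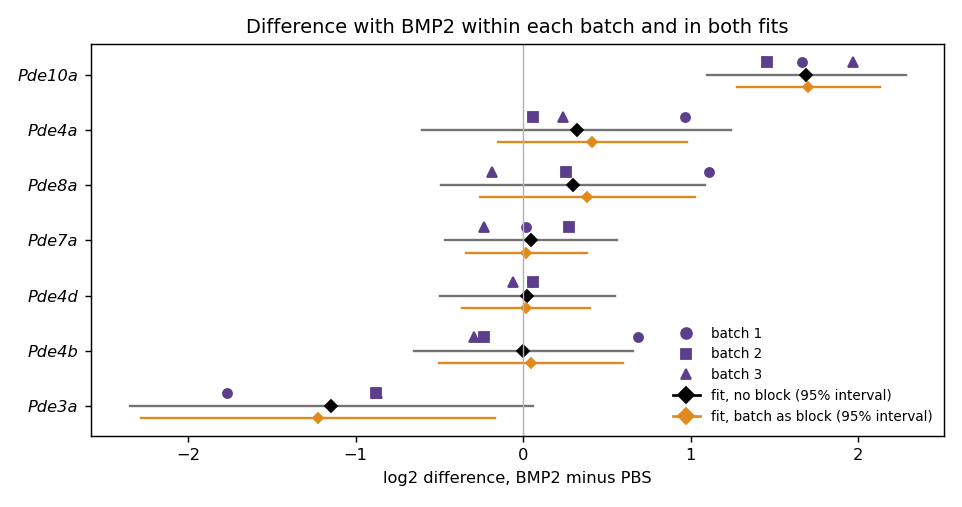
Log2 difference of BMP2 minus PBS for the 7 members tested, within each batch (purple markers) and in the fits without (black) and with batch as a block (orange), with bars for 95% intervals. All 3 batch values of Pde10a lie between 1.46 and 1.97, and batch 1 lies apart from batches 2 and 3 for Pde4a, Pde4b, Pde8a and Pde3a.

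Read from the fit over all 12929 genes tested, 0 of the 7 members passed the threshold of 0.05 after Benjamini-Hochberg adjustment in edgeR's quasi-likelihood test without the block, beside 0.0464% of all genes. An unadjusted p under 0.05 was reached by 1 member, Pde10a, and by 5.38% of all genes. With the block 1 of 7 passed, again Pde10a, beside 0.735% of all genes, or 0.371% in the same direction. By DESeq2's Wald test 1 of 7 passed without the block, beside 0.48% of all genes called higher. These counts carry no weight for the group, since its members were chosen on this comparison. Groups did not overlap for Pde10a (higher) and Pde3a (lower), 1 of 7 each way, beside 6.42% and 5.72% of all genes. The members were higher in all 3 batches for 2 of 7 and lower for 1 of 7, beside 22.8% and 21.1%. The median log2 fold change of the 7 was 0.047, and that of all genes 0.010. The block changed the call for Pde10a alone among the members. Without batch 2 the blocked fit lost that call, at a log2 fold change of 1.83 and with 1 residual degree of freedom.

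Differences between the batches did not enter the choice of the genes and were tested. In the model with treatment and batch, 0 of 7 members differed between batches 1, 2 and 3 (edgeR quasi-likelihood F test), beside 8.12% of all genes tested. The adjusted p was lowest for Pde4a, at 0.107 (unadjusted p 0.0226, the only member under 0.05), and between 0.244 and 0.419 for the other 6. Pde4a was lowest in batch 1 within both groups. Pde4a alone passed by DESeq2's likelihood ratio test (adjusted p 0.0391, beside 20.9% of all genes) and by edgeR without the filter on low counts (0.0396, beside 11.9%). For Pde10a the adjusted p was 0.249, with PBS levels of 10.2, 8.57 and 6.35 CPM in batches 1, 2 and 3.

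Between genes, levels were compared as CPM per kilobase of annotated exon. With PBS the order was Pde7a (5.20 ± 0.39, SD, n = 3), Pde8a (2.93 ± 1.21), Pde4b (1.77 ± 0.59), Pde4d (1.23 ± 0.16), Pde4a (1.13 ± 0.52), Pde10a (0.652 ± 0.151), Pde3a (0.0968 ± 0.0220) and Pde3b (0.00418 ± 0.00469). Pde7a, Pde3a and Pde3b were set apart from their neighbours, while the libraries of Pde8a, Pde4b, Pde4d, Pde4a and Pde10a overlapped from each gene to the next. With BMP2 Pde10a stood in the third place at 2.11 ± 0.37, below Pde8a (3.61 ± 0.43) and overlapping Pde4b (1.77 ± 0.22). Divided by mean transcript length instead of the union of exons, Pde8a fell from the second to the fourth place with PBS and Pde10a rose from the sixth to the fifth, so places in the middle of the order depend on the length used.

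Over the 21 phosphodiesterase genes that encode catalytic subunits, the summed level per kilobase was 30.2 ± 3.7 with BMP2 and 31.5 ± 0.2 with PBS. Pde10a held 7.76%, 5.74% and 7.49% of that sum in the BMP2 libraries and 2.54%, 2.10% and 1.58% in the PBS libraries. Its place among the 21 genes moved from the ninth with PBS to the fourth with BMP2. The leading gene in all 6 libraries was Pde11a, an enzyme for both cyclic nucleotides that is outside the 8 genes, with 49.2%, 41.8% and 43.7% with PBS and 36.8%, 32.3% and 35.4% with BMP2. With mean transcript lengths Pde10a held 9.05 ± 1.51% with BMP2 and 2.83 ± 0.65% with PBS. By that length Pde7a, at 25.5% with BMP2, stood above Pde11a in the BMP2 libraries and also in PBS 2 (26.6% against 26.0%). By the union of exons, genes for cAMP-specific enzymes made up 46.9 ± 4.4% with BMP2 and 41.1 ± 6.4% with PBS, which overlapped between the libraries. With mean transcript lengths they made up 57.0 ± 4.5% and 54.6 ± 5.9%. Shares within a sum are not independent of each other.

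**Figure D3:**
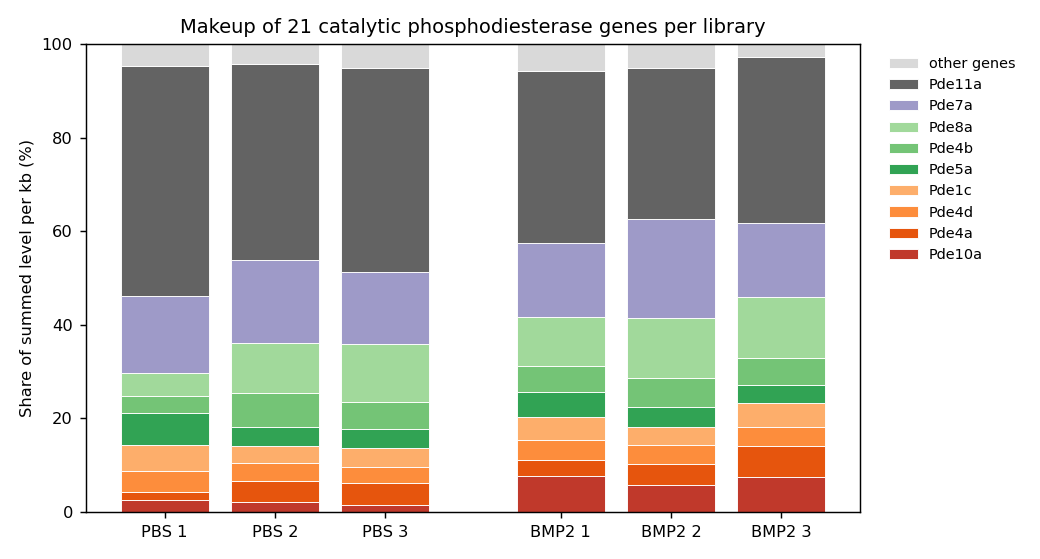
Share of each gene in the summed level per kilobase of exon of 21 catalytic phosphodiesterase genes, 1 bar for each library, with Pde10a in red at the base. The Pde10a part spans 5.74% to 7.76% in the BMP2 libraries and 1.58% to 2.54% in the PBS libraries, and Pde11a in dark grey is the largest part of each bar.

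The rest of the cyclic nucleotide pathway was read from 10 lists by role, which were chosen with earlier results known. The lists hold 122 genes with measured values, of which 82 passed the filter on low counts and were tested. Without the block 0 passed over all genes (edgeR quasi-likelihood test). An unadjusted p under 0.05 was reached by 7 of the 82, beside 5.38% of all genes, and 2 passed by DESeq2's Wald test, beside 1.01%. With the block 1 rose and 1 fell, beside 0.371% and 0.364% of all genes. Given how the lists were chosen, these calls are a description. The gene that rose was Rapgef3, which encodes EPAC1, an exchange factor for RAP GTPases that cAMP opens directly. Rapgef3 was at 123, 102 and 98.5 CPM with BMP2 and at 52.9, 56.3 and 48.3 with PBS, with no overlap. Its log2 fold change was 1.03 (SE 0.13) with the block, at an edgeR adjusted p of 0.036, and 1.04 (SE 0.18) without it, at 0.188. The call was lost without batch 2 (adjusted p 0.155, log2 fold change 1.13) and with scaling to the library total (0.051). The antisense genes Rapgef3os1 and Rapgef3os2 share 3.73% and 5.54% of its exon bases.

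Among the other phosphodiesterases 0 of 10 tested genes passed in either fit, and the median log2 fold change was -0.094. Pde6h did not pass the filter on low counts. It had 56, 9 and 19 estimated counts with BMP2 and 5, 3 and 1 with PBS, higher with BMP2 without overlap. Its exons overlap those of Arhgdib on the opposite strand. In the blocked fit with no low-count filter 1 of 15 genes of this list passed, beside 1.03% of all genes called higher and 1.28% lower. Pde11a was at 62.4, 53.9 and 47.9 CPM with BMP2 and at 80.3, 69.1 and 71.3 with PBS. Its libraries did not overlap, and its log2 fold change of -0.43 (SE 0.18) did not pass (edgeR adjusted p 0.883, and 0.183 with the block). Pde5a and Pde9a, which encode cGMP-specific enzymes, had values of -0.20 and -0.33, and neither sign was stable: Pde5a was at 0.11 without PBS 1 and Pde9a at 0.052 without BMP2 3.

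Upstream of the phosphodiesterases no gene passed in either fit. Of 6 adenylyl cyclase genes, Adcy6 was at 25.3, 25.6 and 25.5 CPM with BMP2 and at 40.0, 37.0 and 34.6 with PBS, a log2 fold change of -0.55 (SE 0.17, edgeR adjusted p 0.721, and 0.158 with the block). Adcy5 and Adcy7 were at -1.26 (SE 0.58) and 0.65 (SE 0.38). Both overlapped between the groups, and Adcy5 rested on only 5 to 33 estimated counts in each library. Gnas, the stimulatory G protein subunit, was at 1418 ± 229 against 1820 ± 247 CPM (log2 fold change -0.36), and the less abundant Gnaz and Gnal were at -0.81 and 0.59. Among 9 tested receptor genes Ptgir, the prostacyclin receptor, was at 2.16, 1.81 and 0.97 CPM with BMP2 and at 2.77, 7.56 and 6.68 with PBS. Its groups did not overlap, and its log2 fold change was -1.79 (SE 0.49, edgeR adjusted p 0.573, and 0.0367 by DESeq2's Wald test). Adora2a, an adenosine receptor, and Pth1r, the parathyroid hormone receptor, were at -1.39 and 0.73, and of the 4 tested guanylyl cyclase and natriuretic peptide receptor genes Gucy2e, Gucy2f and Npr2 were at -0.48, -0.33 and 0.0099. Without PBS 2 these values were 0.23, 0.015 and -0.051, so each changed sign. Exons of Adcy6, Gnas, Gnal, Npr2 and Pth1r overlap genes on the opposite strand, so their values may hold reads of those genes.

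Downstream, 16 effector genes were tested and Rapgef3 alone passed, with the block. Prkg1, the cGMP-dependent kinase, was at 35.1 ± 3.1 against 46.5 ± 2.1 CPM (log2 fold change -0.40). Hcn3, a pacemaker channel that binds cyclic nucleotides and whose exons overlap those of Pklr, was at -1.34. It rested on 6 to 54 estimated counts in each library, and its groups overlapped. Of 10 genes for anchoring proteins of protein kinase A 0 passed, with -0.59 for Akap13, 0.38 for Akap10 and 0.23 for Akap7. Of 11 genes for CREB factors, coactivators and salt-inducible kinases 0 passed, with -0.44 for Sik3, -0.72 for the coactivator Crtc2 and -0.89 for Sik1. Without PBS 1, where both were highest, Crtc2 was at -0.25 and Sik1 at -0.17. Both exporter genes, Abcc4 and Abcc5, were at 0.015 and -0.31, and the sign of Abcc4 turned with the library left out. The 10 tested CREB target genes had a median log2 fold change of -0.86, beside 0.010 over all genes. That median was -0.71 with the block and -0.16 without PBS 1, in which Per1 and Sik1 had their highest levels, at 407 and 19.3 CPM, while Fos was highest in PBS 2, at 328 CPM. One of them passed, with the block: Dusp1, a MAP kinase phosphatase, fell by 0.97 (SE 0.12, edgeR adjusted p 0.036, and 0.883 without the block). Dusp1 was at 39.7, 45.4 and 11.4 CPM with BMP2 and at 80.4, 89.7 and 21.5 with PBS, lower in each batch while the groups as a whole overlapped. Its call was also lost without batch 2 and with scaling to the library total. Nr4a3, a nuclear receptor, was at 115 ± 29 against 204 ± 31 CPM (log2 fold change -0.84). Nfil3, a transcription factor of circadian and immune control, was at -0.66. Mitf went the other way at 0.58 (SE 0.18, edgeR adjusted p 0.687, and 0.142 with the block), with no overlap between the libraries of the groups. Crem, listed as a CREB target too, was also above 0, at 0.23, and its groups overlapped. These CREB targets respond to other pathways too.

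**Figure D4:**
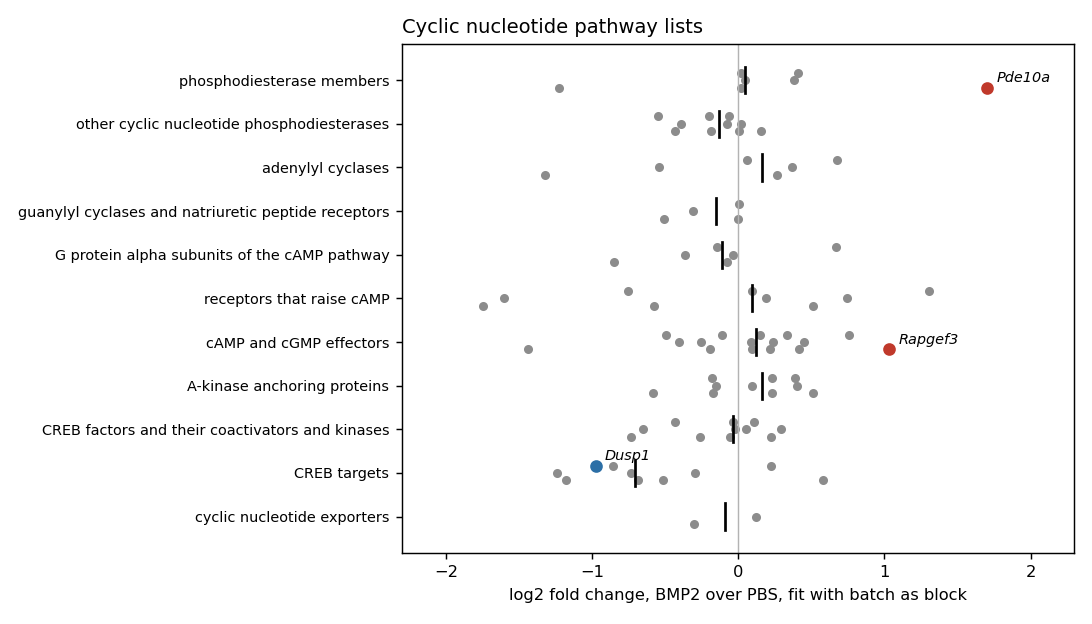
Log2 fold changes of BMP2 over PBS with batch as a block, 1 point for each tested gene of the members and of 10 pathway lists, with a bar at each list's median. Coloured and named points passed the threshold over all genes: Pde10a and Rapgef3 higher (red) and Dusp1 lower (blue). Pde10a was chosen on this comparison and the lists were chosen with earlier results known, so these passes are a description.

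The genes whose pattern was most like that of Pde10a were ranked by Pearson's r of log2 CPM over the 6 libraries, among 11691 named genes. They were Rufy3, a RUN and FYVE domain protein (r = 0.995), Zc3h15, a zinc finger protein (0.995), Grik2, a kainate receptor subunit (0.989), Col18a1, a collagen of basement membranes (0.987), and Rapgef3 (0.985). All 6 points share the treatment and the batches, so a high r mainly ranks genes with a like difference between the groups and is a description. The sizes differed. The log2 fold changes were 0.51 for Rufy3, 0.19 for Zc3h15, 1.34 for Grik2 and 1.04 for Rapgef3, against 1.69 for Pde10a. That of Col18a1 was 3.39 (SE 0.84), from few estimated counts. Grik2 was at 45.0, 33.3 and 39.1 CPM with BMP2 and at 17.3, 17.8 and 11.3 with PBS, and it passed with the block (edgeR adjusted p 0.0468) and not without it (0.211). That call was lost in the blocked fit without batch 2 (0.0926) and with scaling to the library total (0.0666). Grik2 was ranked on these same values, so its calls are a description and carry no weight. Col18a1 had at most 3 estimated counts in each PBS library. Among the members, Pde3a had an r of -0.89 with Pde10a, and the 5 others tested lay between -0.036 and 0.27.

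**Figure D5:**
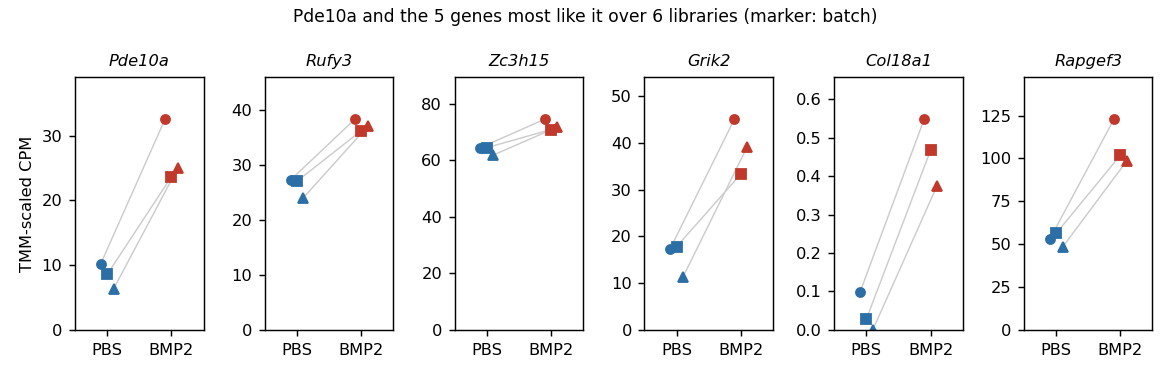
TMM-scaled CPM of Pde10a and of the 5 genes with the highest correlation to it over the 6 libraries, with lines joining the cultures of a batch and marker shapes as for the batches above. Each gene is higher with BMP2 in all 3 batches, by log2 fold changes from 0.19 for Zc3h15 to 3.39 for Col18a1, with 1.69 for Pde10a.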

How the data were processed

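RNA libraries of 6 spheroid cultures were made with a TruSeq kit, per the labels' protocols. The authors deposited 1 table of estimated counts, with fractions, by gene. It was made with kallisto 0.44.0 on build GRCm38.p6, per the submitters' processing notes, but no source used here names the annotation or how transcripts were summed. Reads that match several transcripts are divided between them by likelihood in kallisto.

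Columns were matched to samples by group and replicate number. Of 34981 genes, 34679 were matched to GENCODE M21 for symbols, positions and exon lengths. Values were rounded, filtered with edgeR's default (12929 genes kept), scaled by trimmed mean of M values (TMM) and tested with edgeR 4.0.16 (quasi-likelihood) in R 4.3.3, with treatment as the only term and p-values adjusted by Benjamini-Hochberg over the genes tested, at 0.05. The labels state that replicate numbers mark shared batches. Deviations from group means correlated at 0.514, 0.248 and 0.518 within batches 1, 2 and 3 and at -0.513 to 0.0265 across them, so a fit with batch as a block was read beside it. It leaves 2 residual degrees of freedom, against 4. Nothing says that the cultures of a batch came from separate stocks of cells, so p-values measure the spread between these cultures. Differences are log2, BMP2 minus PBS. SE values were worked back from the F statistic, or taken from the variance of the fitted coefficient where that statistic was very small, as for Pde4b. At the lowest depth, 3 counts are 0.103 CPM. The classes of enzymes are textbook ones.

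The members, the lists, the named genes' rule and the alternatives were chosen with earlier results of these data known. The rule named all members, the 3 genes with the smallest unadjusted p of each list, each gene called in either fit and the 5 genes most like Pde10a without predicted genes and pseudogenes. Of the genes listed, 3 were not analysed here (1 CREB target and 2 epithelial markers), and 1 leukocyte marker is not reported here. Alternatives were other filters, scalings and tests (DESeq2 1.42.0), and leaving out libraries and batches. The fits were also run on simulated counts with the same dispersion for all genes, unlike these data, and no result here rests on that run. Promoter windows come from RefSeq (GRCm38.p6).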

Additional observations from a re-analysis of the deposited data

How the results depend on the processing

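The log2 fold change of Pde10a stayed between 1.53 and 1.85 under all 20 alternatives and was past the threshold under 10 of them. It passed under the replicate block with each other filter, scaling and test run, without batch 1 (1.71) and without batch 3 (1.57), and not without batch 2 (1.83). Without the block it passed with no low-count filter (1.71) and by DESeq2's Wald test (1.68). In the blocked fits that called Pde10a, 0.255% to 1.86% of all genes were called higher. Without the block these shares were 0.088% with no low-count filter and 0.48% by DESeq2's Wald test. Pde10a was chosen on this comparison, so its passes are a description and carry no weight. Pde3a was below 0 under all 18 alternatives that kept it (-1.56 to -0.83), and Pde4a, Pde4b, Pde4d, Pde7a and Pde8a changed sign under at least 1. Scaling to the library total moved the median of all genes from 0.010 to 0.13, and Pde10a to 1.83.

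Without the block 1 gene was called higher and 5 lower, against 48 and 47 with the replicate block, 19 and 16 with no low-count filter, and 62 and 68 by DESeq2's Wald test. Genes called higher were 0 with a mean of at least 100 counts and 0 with the library total. Leaving out 1 library gave 0 to 5 higher and 2 to 5 lower. With the replicate block, the genes called higher and lower were 223 (1.73% of those tested) and 308 (2.39%) without batch 1. They were 9 (0.0686%) and 18 (0.137%) without batch 2, and 115 (0.874%) and 103 (0.782%) without batch 3. With no filter they were 223 (1.03%) and 277 (1.28%), and with at least 100 counts 58 (0.55%) and 53 (0.503%). DESeq2 size factors gave 47 (0.364%) and 51 (0.394%), and the library total 33 (0.255%) and 21 (0.162%). By DESeq2 they were 241 (1.86%) and 412 (3.19%). Fits without a batch keep 1 residual degree of freedom. The blocked fits with another filter, scaling or tool were chosen after seeing the data. Members called were 0 without the block and 0 without any 1 library, 1 with no filter and by DESeq2's Wald test, and 1 in each of the blocked fits other than that without batch 2, which gave 0. Pathway genes called were 0 without the block and 0 without any 1 library, 2 with the replicate block and 2 by DESeq2's Wald test. With the block they were 5 without batch 1, 3 without batch 3, 7 with no filter and 2 with at least 100 counts. They were also 2 with DESeq2 size factors and 8 by DESeq2, but 0 without batch 2 and 0 with the library total. These counts of members and pathway genes stand beside the shares of all genes given above. The number of listed genes tested also differed between fits, so the counts are a description. Genes that differed between batches were 1050, against 2571 with no filter, 581 with the library total and 2708 by DESeq2's likelihood ratio test. The causes were not tested. Estimated counts of Pde3a and Pde3b were too low to fix the size of a difference. The block changed no other call among the genes named than those of Pde10a, Rapgef3, Dusp1 and Grik2.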

Other observations

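Several genes of the pathway differed between the batches, within both the BMP2 and the PBS cultures. Of the 82 tested genes of the lists, 9 passed the edgeR quasi-likelihood F test of batch, beside 8.12% of all genes tested, a share near the background. They were named after their values were seen. Abcc4, an exporter of cyclic nucleotides, was at 13.1, 25.1 and 40.8 CPM in batches 1, 2 and 3 with BMP2 and at 9.24, 25.2 and 43.8 with PBS (adjusted p 0.0229), with the libraries of each batch close to each other. Prkar2a, a regulatory subunit of protein kinase A, was lower in batch 1, at 31.2 against 61.3 and 65.2 with BMP2 and at 21.4 against 44.1 and 51.5 with PBS (0.0277). Mc1r, the melanocortin receptor, whose exons overlap an antisense gene, was also lower in batch 1, at 216 against 355 and 342 with BMP2 and at 153 against 355 and 326 with PBS (0.0457).

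Other genes were lower in batch 3. Pkia, an inhibitor of protein kinase A, was at 112, 70.2 and 45.0 CPM with BMP2 and at 111, 85.9 and 63.6 with PBS (edgeR adjusted p 0.0381). Per1, a clock gene and CREB target, was at 129, 87.5 and 16.8 with BMP2 and at 407, 125 and 43.1 with PBS (0.0217), and Fos and Dusp1 were also lowest in batch 3 in both groups (0.0383 and 0.0155). Akap12, an anchoring protein, was at 22.1, 16.6 and 8.16 with BMP2 and at 13.8, 14.4 and 6.71 with PBS (0.0428), and Crtc2 was highest in batch 1 in both groups (0.0383).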
